A study of Mus musculus with 7 samples.

Results

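The cytosolic genes of the thioredoxin and peroxiredoxin system were read in mouse prostate tumour cells given the PAX8-NFE2L2 fusion, next to their relatives in mitochondria and the endoplasmic reticulum. The 10 genes were taken by symbol from the deposited gene counts and all 10 were found, among 46603 gene rows, and all 10 passed the filter on low counts that left 16731 genes for testing. They are sulfiredoxin (Srxn1), thioredoxin (Txn1), both thioredoxin reductases (Txnrd1 and Txnrd2) and 6 peroxiredoxins (Prdx1 to Prdx6). RNA came from TRAMP-C1, a cell line labelled prostate epithelial, of the strain C57BL/6-TgN(TRAMP)8247Ng, in which a transgene drives prostate tumours. Fusion cells (3 libraries) were transduced with lentivirus carrying PAX8-NFE2L2 in the Lv229 plasmid, and empty vector cells (3 libraries) with virus made from the empty plasmid. Both groups spent 12 h with virus and another 24 h in fresh medium. A single library named WT has no vector in its label, and the labels give no separate account of its handling. Everything rests on 1 cell line, no label says that replicates came from separate cultures, and the sources do not name the promoter of the construct. P-values therefore measure the spread between these libraries, which may be technical.

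Thioredoxin is a small protein that reduces disulfides in other proteins and is itself recharged by thioredoxin reductase, a selenoenzyme that draws on NADPH. Peroxiredoxins destroy hydrogen peroxide with a cysteine that thioredoxin then resets in most of them, while Prdx6, for example, relies on glutathione. Too much peroxide oxidizes that cysteine further and stalls the typical 2-Cys enzymes (Prdx1 to Prdx4), and sulfiredoxin is the enzyme that repairs them. NFE2L2 encodes NRF2, a transcription factor that binds antioxidant response elements together with small MAF proteins, and several genes of this system are textbook NRF2 targets, Srxn1, Txnrd1 and Prdx1 among them.

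Libraries held 26368182 to 59597170 gene reads, and the 10 genes had 287 to 34750 reads in any one library, so none was near the limit of detection. Pax8, one partner of the fusion, lay at 6.4, 8.53 and 5.57 CPM in fusion replicates 1, 2 and 3, against 0.0334, 0.0358 and 0.217 CPM in empty vector replicates 1, 2 and 3 and 0.0401 CPM in the WT library, where CPM are read counts scaled to a library of 1000000 reads. Nfe2l2 itself lay at 136 ± 11.9 CPM in fusion cells and 119 ± 7.14 CPM in empty vector cells (SD, n = 3 each). This difference did not pass the test (log2 fold change 0.19, edgeR adjusted p = 0.885). The Pax8 and Nfe2l2 values count reads on the mouse genes, and how many reads of the construct they hold was not tested. The epithelial label was not borne out by most defining markers: Krt8, Krt5, Krt14, Epcam and Cdh1 stayed at or under 3.52 CPM in all 7 libraries. The mesenchymal marker Vim lay at 2102 to 4027 CPM. Of 7 epithelial markers that could be tested 2 rose with the fusion (Krt18 and Foxa1), of 2 immune markers 1 (Cd14), and of 2 neuroendocrine markers 1 (Insm1), where 1.69% of all tested genes rose (edgeR, without pairing). Cd14 lay at 58.7 to 83.9 CPM in fusion cells and 27.5 to 30.6 CPM in empty vector cells and made up nearly all of the immune list's summed level (60.8 to 87.3 CPM in fusion cells and 29.1 to 32.6 CPM in empty vector cells), while Ptprc and Lyz2 stayed at or under 0.486 CPM and Cd68 overlapped between the groups. Chga was at 0 in every library, and the part of these shifts in the results was not tested. In bulk RNA, fewer cells of a kind and less RNA per cell cannot be told apart.

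Promoter windows of 300 bases (250 before and 50 after the start site) are printed for the 3 genes in which the core of the antioxidant response element was found. RefSeq on GRCm38.p6 held windows of 9 of the 10 genes, all but Prdx6, and the windows were searched on both strands for TGACNNNGC. It was found once each for Srxn1, Prdx1 and Txnrd1, and 12.4% of all 32851 windows hold at least 1 copy. A second word, TGAGTCA, was chosen after the sequences had been seen. It stands at 2 places in the Srxn1 window and at 2 in the Prdx1 window, while 5.2% of all windows hold it and 0.222% hold 2 or more copies. Capitals mark TGACNNNGC or TGAGTCA on either strand, and in Prdx1 the TGACNNNGC match contains one of the TGAGTCA matches.
Srxn1 (chr2:152105274-152105573, plus strand): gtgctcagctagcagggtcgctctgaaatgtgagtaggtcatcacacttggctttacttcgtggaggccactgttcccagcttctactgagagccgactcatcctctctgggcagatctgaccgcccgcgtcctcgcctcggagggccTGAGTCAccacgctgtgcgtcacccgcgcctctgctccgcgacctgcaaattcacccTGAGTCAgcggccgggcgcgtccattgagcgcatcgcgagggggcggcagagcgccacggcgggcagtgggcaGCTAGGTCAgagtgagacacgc
Prdx1 (chr4:116685349-116685648, plus strand): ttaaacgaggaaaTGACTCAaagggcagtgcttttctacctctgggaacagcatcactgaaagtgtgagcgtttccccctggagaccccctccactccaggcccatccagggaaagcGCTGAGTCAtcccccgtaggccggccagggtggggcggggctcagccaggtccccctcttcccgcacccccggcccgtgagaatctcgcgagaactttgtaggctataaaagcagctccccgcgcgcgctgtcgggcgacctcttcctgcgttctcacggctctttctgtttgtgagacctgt
Txnrd1, the second of its 3 annotated windows (chr10:82858956-82859255, plus strand): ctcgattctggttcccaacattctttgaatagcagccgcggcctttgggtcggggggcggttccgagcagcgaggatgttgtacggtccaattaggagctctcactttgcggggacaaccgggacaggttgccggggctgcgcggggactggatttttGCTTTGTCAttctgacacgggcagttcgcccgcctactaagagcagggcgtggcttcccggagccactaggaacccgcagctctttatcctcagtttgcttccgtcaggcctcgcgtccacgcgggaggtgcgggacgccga
Counting the start site as 0, the TGAGTCA copies of Srxn1 began 102 and 45 bases before it and its TGACNNNGC match 28 bases after it. In Prdx1 the TGACNNNGC match began 133 bases before the start site, and in Txnrd1 92 bases before it. A match describes these letters and not a bound site.

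Srxn1 was the member that separated fusion from empty vector cells most widely, and the other cytosolic members lay higher by smaller amounts, of which 4 of 5 passed the test when libraries were paired by replicate number. In the test without pairing, 1 of the 10 genes rose with the fusion and 0 fell (quasi-likelihood F test of edgeR, with p-values adjusted over all 16731 genes and a threshold of 0.05), against a background of 1.69% of all tested genes higher and 0.353% lower. Libraries of the same number deviated together from their group means, and the numbers were treated as pairs, which no label names. In the fit with this replicate block 5 of the 10 rose (Srxn1, Prdx6, Txnrd1, Prdx1 and Txn1) and 1 fell (Prdx4), against 7.63% higher and 5.5% lower among all tested genes (13.1% in either direction). The 5 that rose are among the 6 members assigned to the cytosol, and the 1 that fell, Prdx4, is the only member assigned to the endoplasmic reticulum. Prdx5, which lies in several compartments including the cytosol, was kept apart and did not pass (log2 fold change 0.056 with the block, edgeR adjusted p = 0.809). DESeq2, without pairing, called 1 of the 10 higher, Srxn1, and 0 lower, against 3.72% and 1.79% of all genes. The median log2 fold change was 0.36 over the 10 genes and 0.01 over all tested genes.

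**Figure D1:**
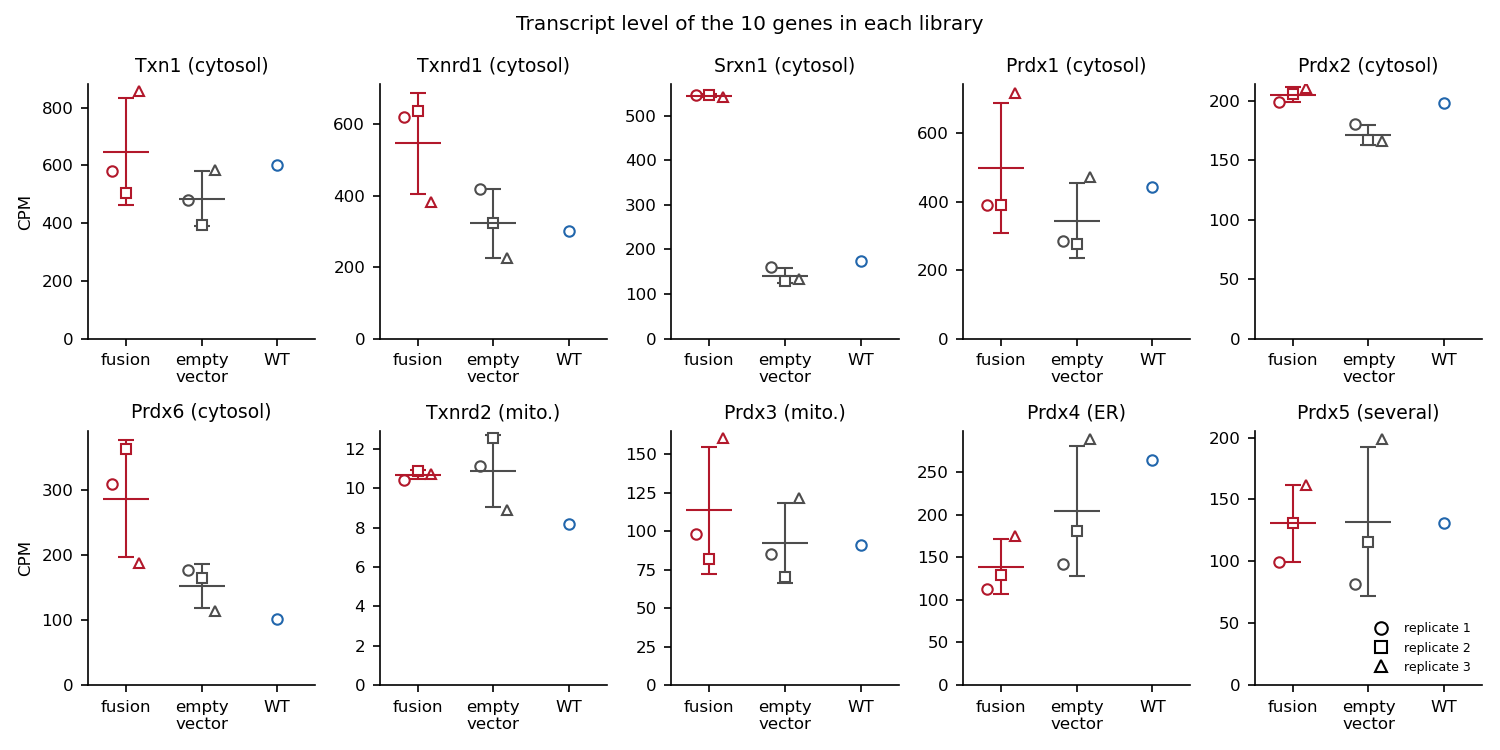
Transcript level (CPM, linear axis from 0) of each gene in the 3 fusion, 3 empty vector and 1 WT libraries, with the cellular compartment of the protein in brackets, symbols for replicate numbers, and bars for mean ± SD where n = 3. Srxn1 lies between 542 and 548 CPM in fusion cells and between 130 and 160 CPM in empty vector cells, while most other genes overlap between the groups.

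Srxn1 (ENSMUSG00000032802.8, chromosome 2:152105516-152111376, plus strand), which returns over-oxidized peroxiredoxins to service, had 547.9, 547.8 and 541.5 CPM in fusion replicates 1, 2 and 3, against 159.8, 129.6 and 133.3 CPM in empty vector replicates and 173.3 CPM in the WT library. All fusion libraries lay above all others, with an SD of 3.63 CPM in fusion cells and 16.5 CPM in empty vector cells. The rise was 3.87-fold (log2 fold change 1.95, SE 0.19, 95% interval 1.52 to 2.39, edgeR adjusted p = 0.00256). It passed in 6 of 6 fits that left out 1 library (log2 fold change 1.90 to 2.05, highest adjusted p = 0.0233). With numbers 1 and 3 alone, or 2 and 3 alone, the log2 fold change was 1.88 or 2.0045. The call was lost without pairing (edgeR adjusted p = 0.165 and 0.0729), and the gene passed with the replicate block (0.00902 and 6.526e-05). With so few libraries the blocked fit leans on the spread pooled over genes. No 50-base window of its annotated transcripts occurs in a transcript of another gene, and no annotated gene overlaps it. Every fusion library exceeded every empty vector library for 3 of the 10 genes (Srxn1, Prdx2 and Prdx6), as for 9.15% of all tested genes, and the reverse held for 0, against 6.65%.

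Txnrd1 (ENSMUSG00000020250.9, chromosome 10:82833951-82897712, plus strand), the cytosolic thioredoxin reductase, had 619.5, 636.3 and 382.6 CPM in fusion replicates 1, 2 and 3, against 419.8, 322.2 and 226.4 CPM in empty vector replicates and 300.9 CPM in the WT library. Replicate 3 was the lowest of each group, so that fusion replicate 3 lay below empty vector replicate 1 although each fusion library exceeded the empty vector library of its own number. The log2 fold change was 0.76 (95% interval 0.07 to 1.44, edgeR adjusted p = 0.374) without pairing and 0.77 with the replicate block (95% interval 0.52 to 1.01, adjusted p = 0.00664). Leaving out 1 library moved the unpaired value between 0.56 and 0.99.

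Its substrate Txn1 (ENSMUSG00000028367.5, chromosome 4:57943373-57956411, minus strand), the thioredoxin of cytosol and nucleus, had 581.7, 503.5 and 857.3 CPM in fusion replicates, against 480.2, 392.4 and 583.6 CPM in empty vector replicates and 602.9 CPM in the WT library. Here replicate 3 was the highest of each group. The log2 fold change was 0.42 (95% interval -0.19 to 1.03, edgeR adjusted p = 0.731) without pairing and 0.40 with the replicate block (95% interval 0.19 to 0.61, adjusted p = 0.0333). Leaving out 1 library moved the unpaired value between 0.16 (without fusion replicate 3) and 0.57. Txnrd2 (ENSMUSG00000075704.15, chromosome 16:18426384-18479073, plus strand), the mitochondrial reductase, was the lowest member throughout. It had 10.44, 10.89 and 10.74 CPM in fusion replicates, against 11.13, 12.53 and 8.905 CPM in empty vector replicates and 8.177 CPM in the WT library. The groups overlapped, and its log2 fold change was -0.023 with a 95% interval of -0.54 to 0.49 (edgeR adjusted p = 0.996).

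Prdx6 (ENSMUSG00000026701.14, chromosome 1:161240112-161251219, minus strand), a 1-Cys peroxiredoxin that also has phospholipase activity, had the largest fitted log2 fold change of the 6 peroxiredoxins. It had 310.4, 363.7 and 187.3 CPM in fusion replicates 1, 2 and 3, against 177.9, 165.4 and 114.6 CPM in empty vector replicates and 102.4 CPM in the WT library, which was the lowest of the 7. The groups did not overlap. Without pairing the log2 fold change was 0.91, with a 95% interval of 0.24 to 1.58 (edgeR adjusted p = 0.231), and it was 0.88 with the replicate block (95% interval 0.64 to 1.13, adjusted p = 0.0045). The unpaired value ran from 0.71 to 1.14 when 1 library was left out.

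Prdx1 (ENSMUSG00000028691.11, chromosome 4:116685544-116700822, plus strand), the main cytosolic 2-Cys enzyme, had 390.2, 389.4 and 718.7 CPM in fusion replicates, against 286.4, 276.6 and 471.1 CPM in empty vector replicates and 443.5 CPM in the WT library. Replicate 3 was again the highest of each group, and the groups overlapped. The log2 fold change was 0.53 (edgeR adjusted p = 0.701) without pairing and 0.52 with the replicate block (95% interval 0.33 to 0.70, adjusted p = 0.0101). The unpaired value ran from 0.18 (without fusion replicate 3) to 0.83 (without empty vector replicate 3). Prdx2 (ENSMUSG00000005161.14, chromosome 8:84969587-84974834, plus strand), its close relative, varied little: 198.4, 205.4 and 210.8 CPM in fusion replicates, against 180.7, 166.5 and 166.2 CPM in empty vector replicates and 198.2 CPM in the WT library. Its groups did not overlap, but the log2 fold change of 0.26 passed neither without pairing (edgeR adjusted p = 0.751) nor with the replicate block (0.0823).

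Outside the cytosolic group the picture was mixed. Prdx3 (ENSMUSG00000024997.7, chromosome 19:60864051-60874556, minus strand), the mitochondrial peroxiredoxin, had 98.38, 82.17 and 160.5 CPM in fusion replicates, against 85.52, 70.42 and 121.4 CPM in empty vector replicates and 91.3 CPM in the WT library. The groups overlapped, and its log2 fold change of 0.30 (0.28 with the replicate block) did not pass (edgeR adjusted p = 0.91 and 0.0705). Its direction turned without fusion replicate 3 (log2 fold change -0.034).

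Prdx4 (ENSMUSG00000025289.14, chromosome X:155323918-155340754, minus strand), which uses peroxide made during protein folding in the endoplasmic reticulum, was the single member that lay lower with the fusion in every replicate number. It had 112.3, 128.9 and 174.9 CPM in fusion replicates 1, 2 and 3, against 142.3, 180.6 and 289 CPM in empty vector replicates and 264.1 CPM in the WT library. Replicate 3 was the highest of each group and the groups overlapped. The log2 fold change was -0.56 (95% interval -1.25 to 0.14, edgeR adjusted p = 0.621) without pairing and -0.52 with the replicate block (95% interval -0.75 to -0.29, adjusted p = 0.0193). The unpaired value ran from -0.77 (without empty vector replicate 1) to -0.22 (without empty vector replicate 3). Prdx5 (ENSMUSG00000024953.15, chromosome 19:6906697-6910106, minus strand), an atypical 2-Cys enzyme of mitochondria, peroxisomes and cytosol, had 99.38, 131.3 and 161.7 CPM in fusion replicates, against 81.91, 115.3 and 198.9 CPM in empty vector replicates and 131.3 CPM in the WT library. Its groups overlapped, its log2 fold change was -0.014 (95% interval -0.80 to 0.77), and the fitted direction turned with the replicate block (0.056, edgeR adjusted p = 0.809).

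**Figure D2:**
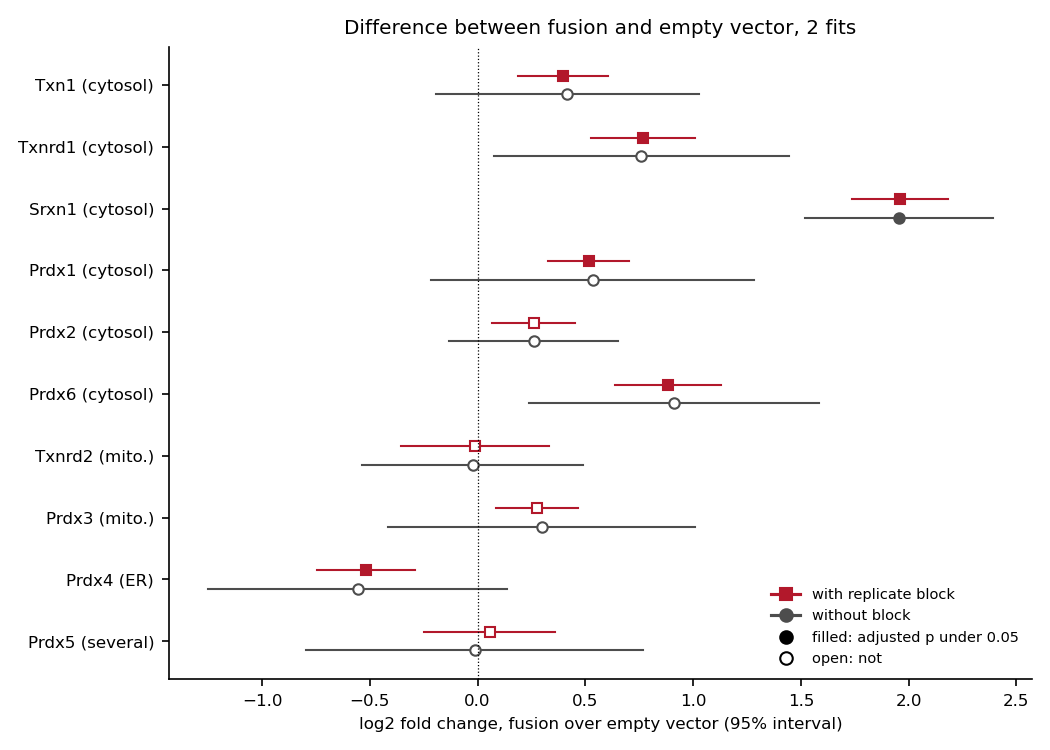
Log2 fold change of fusion over empty vector with its 95% interval for each gene, from the edgeR fit with the replicate block (squares) and without it (circles), filled where the adjusted p is under 0.05. The estimates hardly differ between the fits while the intervals narrow with the block, and Srxn1 is filled in both.

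Within replicate numbers the direction was the same in all 3 comparisons for 8 of the 10 genes. Fusion lay above empty vector in every number for 7 genes, as for 27.8% of all tested genes, and below it in every number for 1, Prdx4, against 24.6%. The log2 difference within numbers 1, 2 and 3 was 1.78, 2.08 and 2.02 for Srxn1. It was 0.80, 1.14 and 0.71 for Prdx6 and 0.56, 0.98 and 0.76 for Txnrd1. For Prdx4 it was -0.34, -0.49 and -0.72. The mixed genes were Txnrd2 (-0.092, -0.20 and 0.27) and Prdx5 (0.28, 0.19 and -0.30), each with number 3 on the other side of 0.

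**Figure D3:**
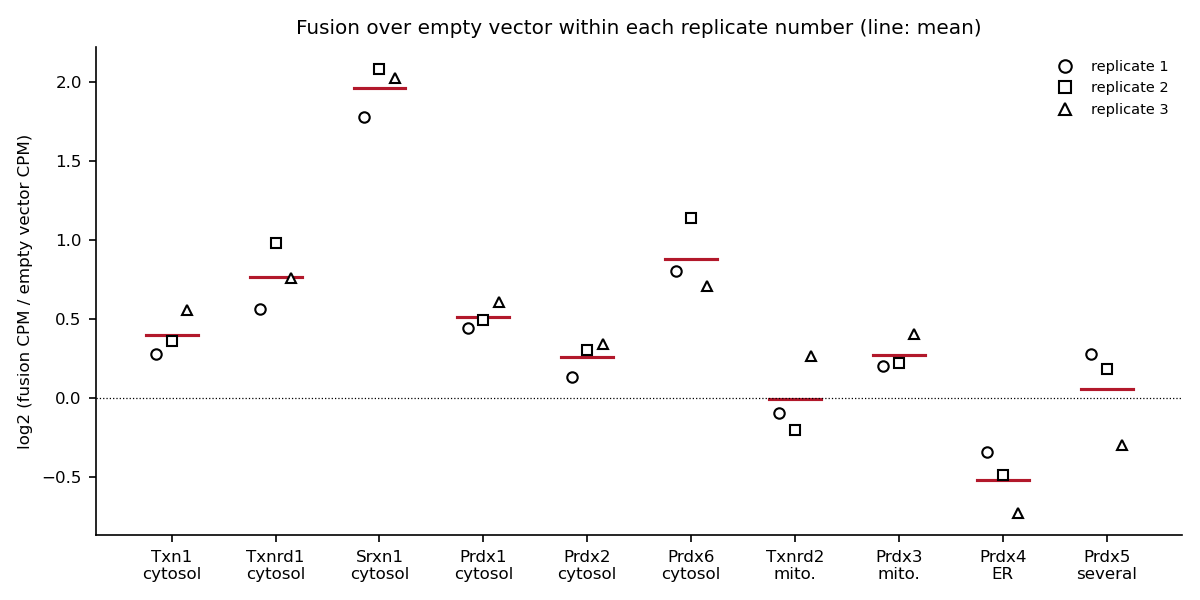
Log2 ratio of CPM, fusion over empty vector of the same replicate number, for each gene, with 1 symbol per number and a line at the mean of 3. All 6 cytosolic genes and Prdx3 have 3 symbols above 0, and Prdx4 has 3 below.

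Libraries numbered 3 lay beyond both other numbers in both groups for 7 of the 10 genes, against 53.9% of all tested genes. Number 3 lay above numbers 1 and 2 in both groups for 5 of the 10 genes (Txn1, Prdx1, Prdx3, Prdx4 and Prdx5), against 26% of all tested genes, and below them in both groups for 2 (Txnrd1 and Prdx6), against 27.8%. For Prdx1 the log2 difference of number 3 from the mean of numbers 1 and 2 was 0.88 in fusion cells and 0.74 in empty vector cells. For Prdx6 it was -0.85 in fusion cells and -0.58 in empty vector cells. The number 3 libraries came from other sequencing lanes, lane 2 for fusion and lane 1 for empty vector. Group and lane therefore cannot be told apart within number 3. Of their reads 44.8% (fusion) and 45.3% (empty vector) had several alignments, against 36.1 to 38.9% in the other libraries. The part of these differences in the results was not tested. Within numbers 1 and 2 alone, which shared lanes, the log2 fold changes were 1.94 for Srxn1 (edgeR adjusted p = 0.0144), 0.99 for Prdx6 (0.0557), 0.77 for Txnrd1 (0.147), 0.48 for Prdx1 (0.239), 0.33 for Txn1 (0.569) and -0.41 for Prdx4 (0.451). With the replicate block these 2 numbers gave 5 members higher, against 11.2% of all genes, and 1 lower, against 8.38%. With so few libraries that fit leans on the spread pooled over genes.

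Levels were set between genes per kilobase of annotated exon (reads per kilobase per 1000000 reads, RPKM here). Txn1 was the most abundant transcript of the 10, at 616 ± 177 RPKM in fusion cells and 462 ± 91.1 RPKM in empty vector cells (SD, n = 3 each), and Txnrd2 the least, at 2.43 ± 0.0523 RPKM in fusion cells and 2.47 ± 0.416 RPKM in empty vector cells. Srxn1 ranked 2 of 10 in fusion cells at 194 ± 1.3 RPKM and 7 of 10 in empty vector cells at 50 ± 5.85 RPKM. In fusion cells Prdx1 followed at 164 ± 62.4 RPKM, overlapping Srxn1 and lying above the next gene in every library. Then came Txnrd1 (77.1 ± 20 RPKM), Prdx3 (76.9 ± 28), Prdx2 (67.2 ± 2.04), Prdx4 (65.9 ± 15.4), Prdx5 (61.1 ± 14.6) and Prdx6 (59.8 ± 18.8), with neighbours in that order overlapping in range. In empty vector cells the order after Txn1 was Prdx1 (113 ± 36 RPKM), Prdx4 (96.8 ± 36.1), Prdx3 (62.6 ± 17.7), Prdx5 (61.7 ± 28.2), Prdx2 (56.1 ± 2.71), Srxn1, Txnrd1 (45.6 ± 13.7) and Prdx6 (31.8 ± 6.98), with neighbours overlapping in range from Prdx1 to Prdx6. The order rests on exon length: with the lengths of the basic transcript set Prdx4 ranked 4 in fusion cells (140 RPKM) and 2 in empty vector cells (206 RPKM), and Srxn1 ranked 3 in fusion cells and 9 in empty vector cells.

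**Figure D4:**
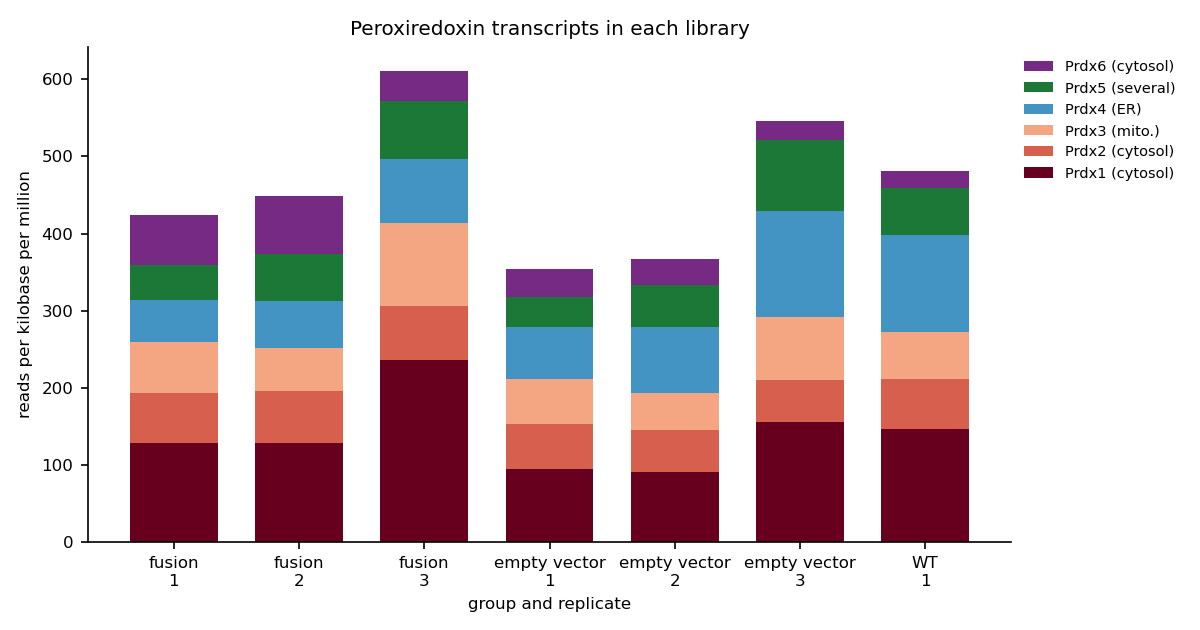
Stacked level of the 6 peroxiredoxin transcripts (RPKM, bars from 0) in each library, with compartments in the legend. Prdx4 reaches 53.3 to 83 RPKM in fusion libraries, 67.6 to 137 RPKM in empty vector libraries and 125 RPKM in the WT library, and both libraries numbered 3 are taller than the others of their group.

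Summed by compartment, the 6 cytosolic transcripts came to 1093, 1034 and 1406 RPKM in fusion replicates 1, 2 and 3, against 763.2, 644.7 and 867.7 RPKM in empty vector replicates and 909.7 RPKM in the WT library. Txn1 was the largest term of this sum in every library. The 2 mitochondrial transcripts summed to 68.94, 58.07 and 111 RPKM in fusion replicates, against 60.39, 50.49 and 84.16 RPKM in empty vector replicates and 63.63 RPKM in the WT library. The groups overlapped there and did not overlap for the cytosolic sum. The 6 peroxiredoxins together came to 495 ± 102 RPKM in fusion cells and 422 ± 107 RPKM in empty vector cells (SD, n = 3 each), and the log2 difference within numbers 1, 2 and 3 was 0.26, 0.29 and 0.16. These sums are descriptions without a test.

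The balance between compartments was read as the log2 ratio of 2 transcripts per kilobase within a library, which no library scaling can move. The exon lengths used set the level and sign of a ratio, but not its difference between groups. The repair enzyme against its main cytosolic substrate, Srxn1 over Prdx1, stood at 0.60, 0.60 and -0.30 in fusion replicates, against -0.73, -0.98 and -1.71 in empty vector replicates and -1.25 in the WT library. The means differed by 1.44 on the log2 scale. Cytosolic against endoplasmic reticulum peroxiredoxin, Prdx1 over Prdx4, stood at 1.27, 1.06 and 1.51 in fusion replicates, against 0.48, 0.084 and 0.17 in empty vector replicates and 0.22 in the WT library, a difference of 1.03. With the lengths of the basic transcript set Prdx1 lay under Prdx4 in empty vector cells (mean 135.5 and 206 RPKM). In fusion cells it lay above Prdx4 with those lengths too (196.3 and 140.1 RPKM). Prdx1 over Prdx3, cytosol against mitochondria, differed by 0.24, with 0.95, 1.20 and 1.12 in fusion replicates, against 0.70, 0.93 and 0.91 in empty vector replicates and 1.24 in the WT library, above all 6. In these 3 ratios every fusion library exceeded every empty vector library, which gives p = 0.1 in an exact two-sided permutation test, the smallest that 3 against 3 allows (adjusted over 5 ratios 0.167). Txnrd1 over Txnrd2 differed by 0.77 (exact permutation p = 0.2, adjusted 0.25) and Txn1 over the mitochondrial thioredoxin Txn2 by 0.45 (exact permutation p = 0.3, adjusted 0.3), and the groups overlapped in both.

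**Figure D5:**
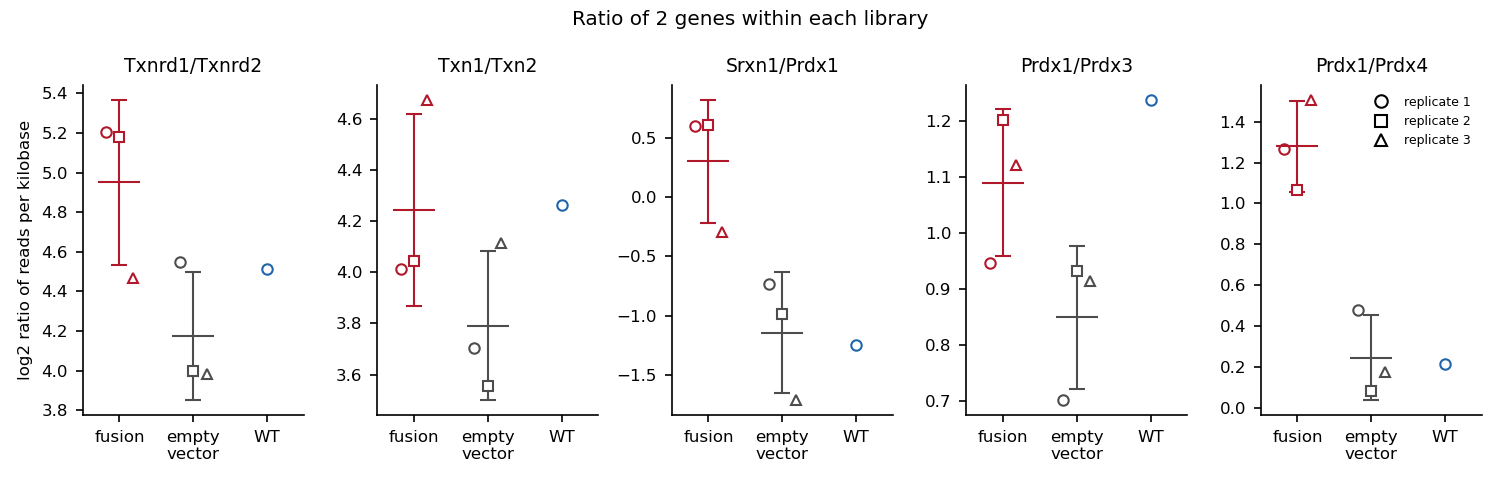
Log2 ratio of reads per kilobase between 2 genes within each library for the 3 fusion, 3 empty vector and 1 WT libraries, with symbols for replicate numbers and bars for mean ± SD where n = 3. The fusion libraries lie above the empty vector libraries for Srxn1/Prdx1, Prdx1/Prdx3 and Prdx1/Prdx4, and overlap them for Txnrd1/Txnrd2 and Txn1/Txn2.

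Transduction with the empty vector was set against the 1 WT library, whose spread is taken from the other groups. Of the 10 genes 0 passed in either direction (edgeR) and 0 had an unadjusted p under 0.05, against 0% of all tested genes called and 4.46% with an unadjusted p under 0.05. DESeq2 called 0 of the 10 too, against 0.263% of all genes higher and 0.197% lower (0.46% in either direction). With the replicate block, which places the WT library under number 1, 0 of the 10 passed, against 0.0359% of all genes higher and 0.0837% lower, and the fitted directions of Prdx3 (-0.13) and Prdx5 (-0.57) turned. The largest fitted difference was in Prdx6 (log2 fold change 0.58, 95% interval -0.40 to 1.55) and the interval for Srxn1 ran from -0.88 to 0.29 around -0.30. Changes within such intervals were not detectable with 1 WT library. This comparison shares its empty vector libraries with the one above. The WT level lay within the empty vector range for Txnrd1, Prdx1, Prdx3, Prdx4 and Prdx5, above it for Srxn1, Txn1 and Prdx2, and below it for Txnrd2 and Prdx6.

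Of 45 other genes of the thioredoxin pathway, all of them tested, 1 rose with the fusion and 0 fell (edgeR, against 1.69% and 0.353% of all genes), with a median log2 fold change of -0.054 against 0.01 over all genes. The riser was Map3k5, the ASK1 kinase that reduced thioredoxin holds inactive. It had 31.44, 34.46 and 17.39 CPM in fusion replicates, against 4.595, 4.637 and 4.766 CPM in empty vector replicates and 5.912 CPM in the WT library (log2 fold change 2.57, SE 0.30, edgeR adjusted p = 0.00517). The fusion libraries lay above all others, and the call held in 6 of 6 fits without 1 library (highest adjusted p = 0.0324). With numbers 1 and 3 alone, or 2 and 3 alone, the call was lost without pairing (edgeR adjusted p = 0.205 and 0.112). The gene passed there with the replicate block (0.036 and 0.00644), a fit that leans on the spread pooled over genes.

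The mitochondrial thioredoxin Txn2 lay at 134 ± 11.1 CPM in fusion cells and 139 ± 7.71 CPM in empty vector cells (SD, n = 3 each; log2 fold change -0.054, 95% interval -0.46 to 0.35). Txnrd3, the reductase that also acts on glutathione, lay at 22.6 ± 2.21 CPM in fusion cells and 27.2 ± 4.37 CPM in empty vector cells (-0.26, 95% interval -0.74 to 0.21). Txnip, which binds and blocks thioredoxin, varied more between replicate numbers than between groups: 143, 498.3 and 134.1 CPM in fusion replicates, against 104.5, 396.2 and 174.1 CPM in empty vector replicates and 114.2 CPM in the WT library. None of these 3 passed (edgeR adjusted p = 0.989, 0.837 and 0.987).

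With the replicate block 5 of the 45 rose, against 7.63% of all genes, and 2 fell, against 5.5%. Besides Map3k5 the genes are named here after their values were seen. The glutaredoxin Glrx had a log2 fold change of 0.88 (edgeR adjusted p = 0.00277), the methionine sulfoxide reductase Msra 1.11 (0.00666), the mitochondrial transhydrogenase Nnt 0.39 (0.0406) and the sulfhydryl oxidase Qsox1 0.29 (0.046). The sestrin Sesn2 had -0.77 (0.00752) and Txndc12, a thioredoxin-like protein of the endoplasmic reticulum, -0.36 (0.0297). By role, 0 of 5 genes for selenoprotein synthesis, on which both reductases depend, and 0 of 3 ribonucleotide reductase genes, which draw on thioredoxin, passed in either fit. Of 8 genes for oxidative folding in the endoplasmic reticulum, where Prdx4 works, 0 passed without pairing and 1 (Qsox1) with the block.

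Reads of some members cannot be placed with certainty. Of the distinct 50-base windows in annotated transcripts, 15.5% of Prdx5, 12% of Prdx2, 8.81% of Prdx1 and 2.5% of Txn1 also occur in a transcript of another gene, 0.156% of Prdx6, and 0% of Srxn1, Txnrd1, Prdx3 and Prdx4. For Prdx5 (with Trmt112) and part of Prdx2 (with Rnaseh2a and Junb) the other gene overlaps on the opposite strand, and the sources do not name the strand setting of the counting. For Txn1 and part of Prdx2 the shared windows lie in processed pseudogenes. Prdx1 shares windows with 75 other genes, and those that share at least 20 windows with it are processed pseudogenes. Gm21399, which shares 168 windows with Prdx1, held 5307, 5303 and 4917 reads in fusion replicates, against 4634, 3930 and 5159 in empty vector replicates and 5553 in the WT library. Txn-ps1, which shares 25 windows with Txn1, held 2763, 2588 and 2070 reads in fusion replicates, against 2702, 1993 and 2099 in empty vector replicates and 2881 in the WT library. Reads counted there are not part of the levels of Prdx1 and Txn1 above.

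Among 9773 genes of at least 10 CPM on average, those with the pattern most like Srxn1 over the 7 libraries, by Pearson r of log2(CPM + 0.5), were Entpd5 (0.995), Abcb4 (0.993) and Fam13a (0.993). Srxn1 itself differs by group, so a higher mean level in fusion cells was fixed by this choice. Entpd5 lay at 159.5 CPM in fusion cells, against 27.1 CPM in empty vector cells and 37.7 CPM in the WT library. In the same order Abcb4 lay at 71.8, 0.455 and 1.42 CPM and Fam13a at 65.8, 0.378 and 1.06 CPM. These last genes reached the average of 10 CPM only through the fusion libraries. Those most like Txnrd1 were Rela (0.987), Tnip1 (0.986) and Kdm6a (0.983). For Prdx1 they were the pseudogene Gm21399 (0.996), a gene with no symbol here (ENSMUSG00000094518.1, 0.996) and Cript (0.993). These likenesses are descriptions over libraries that share replicate numbers and, in number 3, lanes of their own.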

How the data were processed

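Deposited counts of 7 polyA RNA-seq libraries (50-base single-end reads) were used: 3 fusion, 3 empty vector and 1 WT. The authors deposited whole-number read counts per gene, 1 table per lane (12 tables), and STAR, HTSeq and GRCm38 are named per the submitters' processing notes. The sources name no versions, annotation release or strand setting. Lanes of one library were summed after a chi-square test of their counts (0.979 to 1.01 per degree of freedom, p 0.2 to 0.97). Rows that name no gene stayed out: 5.73 to 6.93% of a library's total outside genes, 1.22 to 1.48% ambiguous, 36.1 to 45.3% with several alignments. Symbols (46005 of 46603 rows), positions and exon lengths came from GENCODE M21 on GRCm38, and promoters from RefSeq.

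Counts were fitted with edgeR 4.0.16 in R 4.3.3 (filterByExpr with minimum count 10, TMM, robust quasi-likelihood F test, Benjamini-Hochberg at 0.05 over 16731 genes), which was tested on simulated data. Fusion against empty vector used 6 libraries, empty vector against WT all 7. DESeq2 1.42.0, other scalings, no filter and left-out libraries were alternatives. Fusion and empty vector libraries with the same number deviated together from their groups (r across genes = 0.659, 0.63 and 0.611), so numbers were used as pairs. With different numbers r was -0.53 to -0.047. Deviations from a group mean cancel out within the group, so this negative sign follows from the positive r of like numbers and adds no support. This check, made on the same counts as the tests, is the source of the pairing, as no label names a shared batch. CPM use TMM factors over 7 libraries (0.944 to 1.04). Limits and intervals cover counting error or library spread only.

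The genes, lists and compartments were chosen with earlier results of these data known. Named were the 10 genes, 3 fixed pathway genes and those past the test, the 3 genes most like Srxn1, Txnrd1 and Prdx1, and the construct genes. A marker value and a value on shared reads are not reported here.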

Additional observations from a re-analysis of the deposited data

How the results depend on the processing

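Over the 10 genes and all alternatives of fusion against empty vector, 144 values kept direction and call, 15 newly passed, 2 were lost and 9 turned. With the replicate block 1276 genes were called higher and 920 lower, 5 and 1 of the 10, and 5 and 2 of the 45 pathway genes. Leaving out 1 library at a time gave 127 to 298 genes higher and 12 to 75 lower, lowest without empty vector replicate 2, and 1 and 0 of the 10. DESeq2 called 622 and 300 genes, and no filter 133 lower. Numbers 1 and 2 with the replicate block gave 1873 and 1402 genes, and 5 and 1 of the 10. With so few libraries this fit, like the other blocked fits of 2 numbers, leans on the spread pooled over genes. The pathway list had 2 higher with DESeq2 and 8 and 6 in numbers 1 and 2 with the block. The other pairs of numbers were added after the data were seen. Numbers 1 and 3 gave 4 and 0 genes, and 0 of the 10 (Srxn1 log2 fold change 1.88, edgeR adjusted p = 0.165), and with the replicate block 253 and 103 genes, 2 and 0 of the 10, and 2 and 1 of the pathway genes. Numbers 2 and 3 gave 39 and 2 genes, and 0 of the 10 (Srxn1 2.0045, 0.0729), and with the replicate block 808 and 677 genes, 4 and 1 of the 10 and 3 and 2 of the pathway genes.

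Directions near 0 turned. Prdx5 had 0.056 with the replicate block, 0.24 in numbers 1 and 2 (0.25 with the block) and -0.27 to 0.41 without 1 library. Txnrd2 had 0.063 in numbers 1 and 3 (0.068 with the block) and -0.15 to 0.093 without 1 library, and Prdx3 -0.034 to 0.54. Txnip had -0.03 in numbers 1 and 3, -0.067 in numbers 2 and 3 with the block and -0.70 to 0.89 without 1 library, and Txn2 -0.11 to 0.0062. For empty vector against WT, DESeq2 called 44 and 33 genes, no filter 2 and 13, and leaving out 1 library 0 and 0 to 5, with 0 of the 10 throughout. Its log2 fold changes ranged over -0.11 to 0.30 for Txnrd1, -0.23 to 0.21 for Prdx3 and -0.41 to 0.29 for Prdx5 without 1 library. The cause of these changes was not tested.

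The 5 ratios kept their direction without any 1 library and in the paired test, where 3 pairs cannot give less than p = 0.25 (exact permutation). For empty vector against WT the replicate block, also added after the data were seen, called 6 and 14 genes and 0 of the 10, and Prdx3 (-0.13) and Prdx5 (-0.57) turned. That pairing rests on number 1 alone and was not checked for the WT library. Mean levels in CPM moved by less than 1 SD without TMM factors, and 12 of 20 levels per kilobase moved by more with basic exon lengths, a choice also made after the data were seen.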
